A study of Sus scrofa with 4 samples.

Results

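The Krüppel-like factors (KLFs) are zinc finger transcription factors, and their transcripts were compared here in the liver of piglets fed with and without added L-carnitine. Members were all probe sets, the groups of probes that the array uses for a transcript, whose annotated gene symbol was KLF followed by a number. The rule found 10 probe sets of 8 genes (KLF1, KLF2, KLF4, KLF9, KLF10, KLF11, KLF13 and KLF15) among 23999 probe sets, and KLF9 and KLF11 had 2 probe sets each. Of the 17 KLF genes in the pig gene table, 9 (KLF3, KLF5, KLF6, KLF7, KLF8, KLF12, KLF14, KLF16 and KLF17) had no probe set named here and were not analysed. The family, with KLF9, KLF11 and KLF15 at its head, was picked out because differences between the diets in these same arrays were already known. The differences are therefore given as a description, and no test is drawn from them.

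The pigs were male crossbreds of (German Landrace x Large White) x Pietrain, 4 weeks old and about 10 kg in body weight at the start and 7 weeks old at the end. Both groups received the same basal diet for 21 days, and the carnitine group received 500 mg L-carnitine per kg diet in addition. Livers were taken 2.5 h after the last meal. RNA of 4 pigs was combined in a pool, each diet had 2 pools, and each pool was hybridized to a single Affymetrix porcine GeneChip, so that variation between single pigs was not measured.

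KLFs bind GC-rich and CACCC-type elements in promoters through a conserved set of zinc fingers at the carboxy terminus. KLF9, KLF10, KLF11 and KLF13 carry a domain that recruits the SIN3A corepressor with its histone deacetylases and act mainly as repressors, while KLF1, KLF2 and KLF4 work with coactivators. In the liver KLF15 is known for its role in amino acid breakdown and gluconeogenesis during fasting, KLF9 and KLF15 respond to glucocorticoids, KLF9 also to thyroid hormone, KLF10 is under control of the circadian clock and the nutrient state, and KLF10 and KLF11 were first described as early genes of the TGF-beta response.

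The values are MAS5 signals, a brightness summary in arbitrary linear units that was scaled to a common mean on each array. The median signal was between 109 and 114 on the 4 arrays. A probe set was called dim if the geometric mean of its signal over the 4 pools lay below 111, the median of all probe sets. By this rule 5 KLF probe sets were dim and 5 were not. The threshold passed through the KLF11 pair, since its brighter probe set had a geometric mean of 119 and the other one of 82.8. Fold differences between the diets are ratios of geometric means. The ratio of 3' to 5' signal of the GAPDH control probe sets, which reflects how intact and how evenly labelled the RNA was, was 18.7 and 16.1 with carnitine against 12.5 and 11.6 in controls, and that of actin was 157 and 136 against 91.2 and 86.7. A second GAPDH set gave 9.65 and 11.1 against 10.2 and 9.04 and did not separate the diets. Whether RNA integrity has a part in the differences below was not tested.

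Signals of KLF9, KLF10, KLF11 and KLF15 were below those of either control pool in both carnitine pools, and that of KLF13 was higher. The signals of KLF1, KLF2 and KLF4 were dim and overlapped between the diets. In all, 6 KLF probe sets lay lower in both carnitine pools, where 20.4% of all probe sets did so, and 1 lay higher, where 19.2% did so. A difference of 2-fold or more was reached by 3 probe sets, those of KLF11 and the brighter one of KLF9, and all 3 were lower with carnitine. Among all probe sets 7.92% were lower and 8.03% were higher by at least that much, and among those that were not dim the shares were 1.52% and 2.12%. Without carnitine pool 1 the number of KLF probe sets at 2-fold was 5, since KLF15 and the dim KLF4 joined. KLF11, with a log2 fold change of -1.45 in its dimmer probe set, was the nearest inside the 2-fold threshold, and KLF15 with -0.90 was the nearest outside it. In limma, 0 of the 10 probe sets passed an adjusted p of 0.05, and of all 23999 probe sets 1 did (0.00417%). At an unadjusted p below that threshold 5 were lower and 1 was higher, where 3.93% of all probe sets were lower and 4.72% higher. Because the family was chosen on this contrast, nothing is read from these counts.

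**Figure D1:**
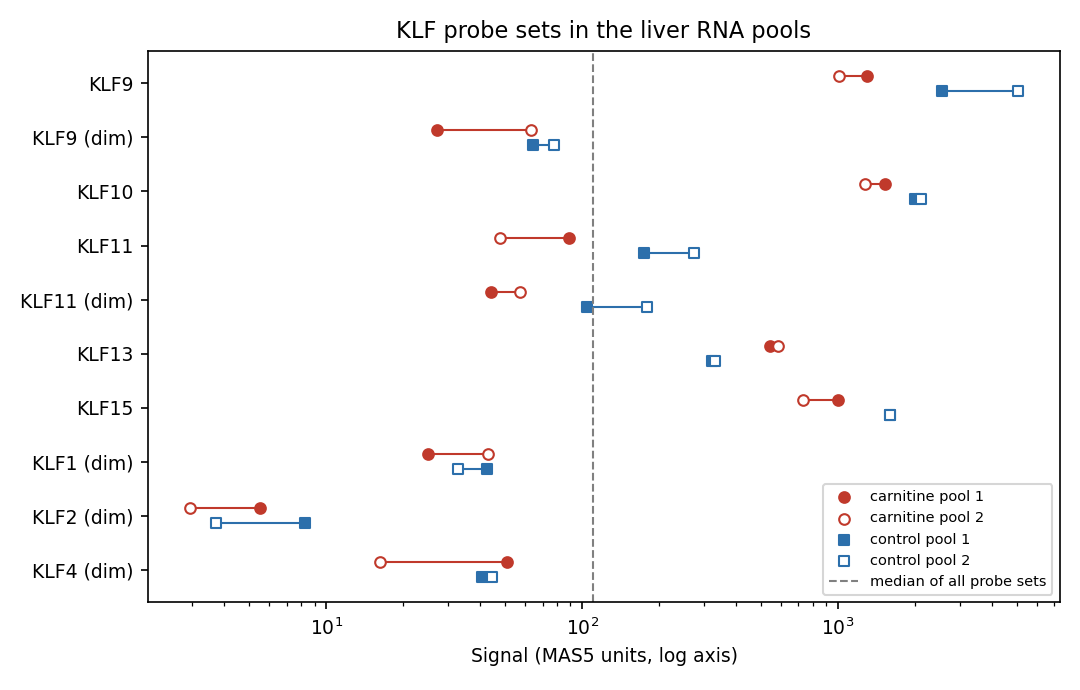
Signal of the 10 KLF probe sets in each RNA pool (MAS5 units, logarithmic axis), with red circles for the carnitine pools, blue squares for the control pools, each diet's pools joined by a line and a dashed line at the median of all probe sets (111). Circles lie left of the squares for KLF9, KLF10, KLF11 and KLF15, right of them for KLF13, and overlap them for KLF1, KLF2 and KLF4.

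Among the KLFs that bind SIN3A, KLF9, a repressor induced by steroid and thyroid hormones, had signals of 1295 and 1005 with carnitine and of 2549 and 5060.0 in controls. The lowest control pool was 1.97 times the highest carnitine pool. Mean signals were 1150.0 ± 205 (SD, n = 2 pools) with carnitine and 3805 ± 1776 (SD, n = 2 pools) in the control group. By geometric means, which were 1141 and 3591, the signal was 3.15-fold lower, with a log2 fold change of -1.65 (standard error 0.33). The control pools themselves differed by 0.99 on the log2 scale, and 7.47% of the probe sets that were not dim differed by 2-fold or more between these pools. Without control pool 2, the higher of them, the log2 fold change of KLF9 was -1.16, and without control pool 1 it was -2.15.

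A further probe set carries the symbol KLF9 but another gene identifier, 397370, which is absent from the gene table, whereas the brighter one carries 494562. It was dim, at 27.1 and 63.1 with carnitine and 64.4 and 77.7 in controls. The pools did not overlap, but the nearest pair differed by only 1.02-fold, and the log2 fold change was -0.78 (standard error 0.58). It went from -1.39 without carnitine pool 2 to -0.16 without carnitine pool 1. Its assignment to KLF9 is uncertain.

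KLF10, a repressor of growth that also acts on hepatic glucose genes, had signals of 1519.8 and 1270.1 with carnitine against 1996 and 2105 in controls. All carnitine values were below all control values, and the pools of each diet lay close together. The mean signal was 1395 ± 177 (SD, n = 2 pools) against 2050.1 ± 77.1 (SD, n = 2 pools), 1.48-fold lower, with a log2 fold change of -0.56 (standard error 0.19). Leaving out a pool moved this value between -0.69 and -0.43.

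KLF11, the closest relative of KLF10 and a regulator of insulin and lipid genes, was measured by a pair of probe sets that moved in the same direction. The brighter had signals of 88.5 and 47.8 with carnitine and of 175 and 272 in controls. The dimmer had 43.9 and 57.1 against 105 and 179.7. In neither did the diets overlap, and control pool 2 was the highest in both, while the lower of the carnitine pools was pool 2 in the former and pool 1 in the latter. The log2 fold changes were -1.75 (standard error 0.45), 3.35-fold lower, and -1.45 (standard error 0.46), 2.74-fold lower. With any pool left out they stayed between -2.19 and -1.30 and between -1.84 and -1.06. These signals lie near the median of the array, where an additive background counts for more: with 64 units added to every signal the values were -1.12 and -0.83.

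KLF13, a factor known from T lymphocytes and the heart that also binds SIN3A, was the only KLF with a higher signal in both carnitine pools. It had 540.4 and 583 with carnitine against 321 and 331.5 in controls. The signal was 1.72-fold higher with carnitine, with a log2 fold change of 0.78 (standard error 0.23). Pooled over both diets, the SD within a diet was 0.059 on the log2 scale, the lowest of the 10 KLF probe sets, and leaving out a pool gave values from 0.73 to 0.84. Its direction was thus opposite to that of KLF9, KLF10 and KLF11, although all of them recruit the same corepressor.

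KLF15, the activator of amino acid breakdown and gluconeogenesis, gave 1002 and 729 with carnitine. In controls it gave 1590.3 and 1589, which were nearly equal. The diets did not overlap, and the nearest pools of different diets differed by 1.59-fold. The signal was 1.86-fold lower with carnitine, and the log2 fold change was -0.90 (standard error 0.22). Without carnitine pool 1 it was -1.12 and without carnitine pool 2 it was -0.67, whereas leaving out control pool 1 or control pool 2 left it at -0.89 and -0.90.

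The remaining KLFs gave dim signals. KLF1, the erythroid factor of the globin genes, had 24.9 and 43.0 with carnitine against 42.5 and 32.6 in controls (a log2 fold change of -0.19 with a standard error of 0.61). KLF2, a factor of endothelial cells and resting lymphocytes, had 5.50 and 2.93 against 8.30 and 3.71 (a log2 fold change of -0.47 with a standard error of 1.04). KLF4, a factor of epithelia and of stem cell renewal, had 50.9 and 16.2 against 40.5 and 44.4 (a log2 fold change of -0.56 with a standard error of 0.71). For these genes the diets overlapped, the difference was smaller than its standard error, and its sign turned when a pool was left out (highest values 0.21, 0.11 and 0.26). A difference was not detectable with these arrays, which is not evidence of an equal level.

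**Figure D2:**
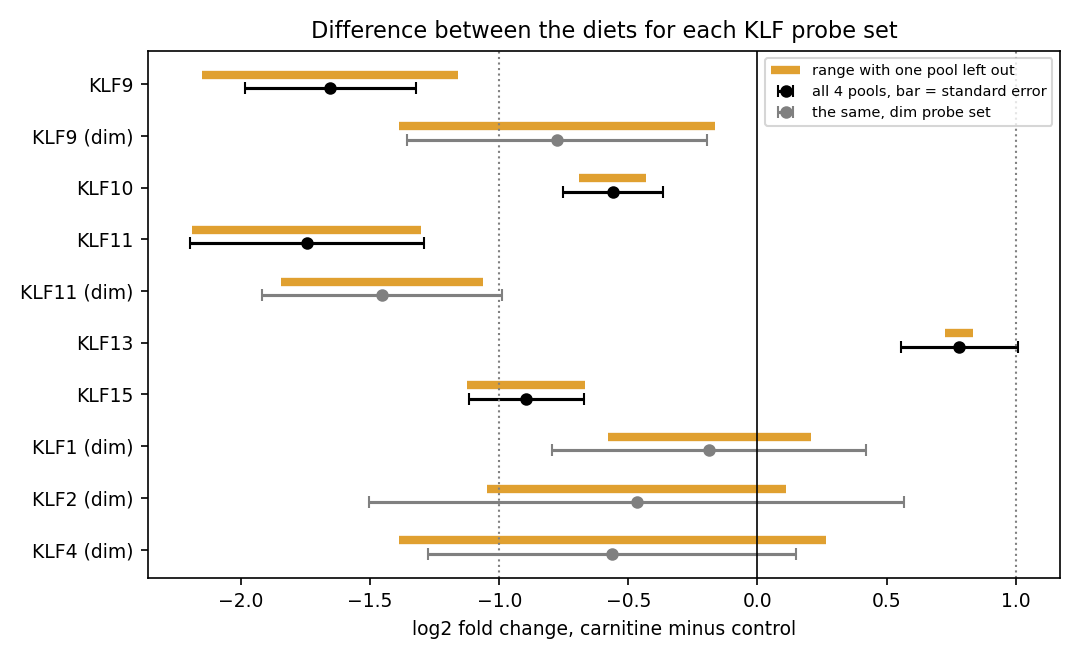
Log2 fold change (carnitine minus control) of the 10 KLF probe sets, with points and bars for the value and its standard error from limma, grey for dim probe sets, orange bands for the range of values with a pool left out, and dotted lines at a 2-fold difference. The bands of KLF9, KLF10, KLF11 and KLF15 lie wholly below 0 and that of KLF13 wholly above it, from 0.73 to 0.84, while those of KLF1, KLF2 and KLF4 cross 0.

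In whole tissue, fewer cells of a type and less RNA per cell cannot be told apart, so markers of the cell types in liver were set beside the KLF signals. All 10 hepatocyte markers were bright, ALB and APOA1 among them, with a median log2 fold change of -0.12 and summed signals of 332843 and 298863 with carnitine against 350875 and 326410 in controls. Control pool 2 stood apart in its stromal and bile duct markers. The summed signal of 9 markers of stellate cells and fibroblasts was 4813 and 4561 with carnitine and 3603 and 12357 in controls. For 6 cholangiocyte markers it was 1832 and 1328 against 1348 and 7697, and for 9 endothelial markers 4011 and 2687 against 3146 and 5677. KLF9, KLF10 and KLF11 were highest in control pool 2 too, KLF10 by little (2105 against 1996 in control pool 1). Leaving out control pool 2 left 1 control pool. The log2 fold changes were then -1.16 for KLF9 (-0.64 in its dim probe set) and -0.52 for KLF10. They were -1.43 and -1.06 for KLF11, 0.80 for KLF13 and -0.90 for KLF15. With all pools the brighter KLF9 probe set had -1.65. The part of stromal, bile duct and endothelial cells in the KLF differences was not tested.

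Some marker sums separated the diets, though not every marker in them did. For 4 erythroid markers the sum was 1267 and 781 with carnitine against 1534 and 2162 without, and for 7 markers of Kupffer cells and macrophages it was 5051 and 4349 against 6099 and 5515. Of the 4 erythroid markers 3 were lower in both carnitine pools, and HBB overlapped, with 310 and 299 against 278 and 301. Of the 7 macrophage markers 3 were lower in both carnitine pools and 1 was higher, CD14, with 356 and 409 against 216 and 328. Among all genes 21.0% were lower and 21.5% higher in this way. For 9 markers of T and NK cells the sum was 1138 and 930 against 1650.0 and 1087, which overlapped. No marker was at 0, but those that define a type were often dim, such as KRT19 and SOX9 of cholangiocytes, KDR of endothelial cells and CD3D of T cells. The part of blood and Kupffer cells in the KLF differences was not tested.

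The KLFs that were not dim were compared with each other by their pattern over the 4 pools. The measure was the Euclidean distance between log2 signals, each centred on its mean over the pools, so that 0 means the same pattern and size. KLF10 and KLF15 were 0.37 apart, and KLF9 and KLF11 were 0.45 apart, while KLF13 lay 2.55 from KLF9 and 1.72 from KLF15. The former pair differed between the diets by less than 2-fold with level control pools, and the latter by more than 3-fold with control pool 2 above control pool 1. The distance includes the size of the diet difference on which the family was chosen, so nothing is read from these pairs.

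Among 5035 other genes with a named probe set that was not dim, HBP1 lay nearest in pattern to the brighter KLF9 probe set. HBP1, an HMG-box transcriptional repressor, was at a distance of 0.35. Its signals were 1560.0 and 1379.5 with carnitine against 3463 and 5151 in controls. FBXO32, the ubiquitin ligase atrogin-1, was at 0.36 and RETREG1, a receptor for autophagy of the endoplasmic reticulum, at 0.44. Each was lowest in carnitine pool 2 and highest in control pool 2, as KLF9 was.

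For the brighter probe set of KLF11 the nearest gene was ALAS2, the erythroid form of the first enzyme of heme synthesis, at 0.43. Genes already listed for KLF9 were passed over here, although FBXO32 and HBP1 lay closer to KLF11 than the other genes listed after ALAS2. Of these, TRAPPC4, a vesicle tethering subunit, was at 0.56 and PDK4, the kinase that switches off pyruvate dehydrogenase, at 0.60. The dimmer KLF11 probe set, with carnitine signals of 43.9 and 57.1 in the opposite order, was not used here. ALAS2 had 358 and 239.6 with carnitine against 644 and 917 in controls, and PDK4 had 3386 and 1744 against 4711 and 6327. KLF15 had closer neighbours, with YPEL5 and ST5 both at 0.059 and MEF2D, a MADS-box transcription factor, at 0.080. MEF2D had signals of 421 and 316 with carnitine against 671 and 717 without. These distances rest on 4 pools and on the same difference between the diets.

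**Figure D3:**
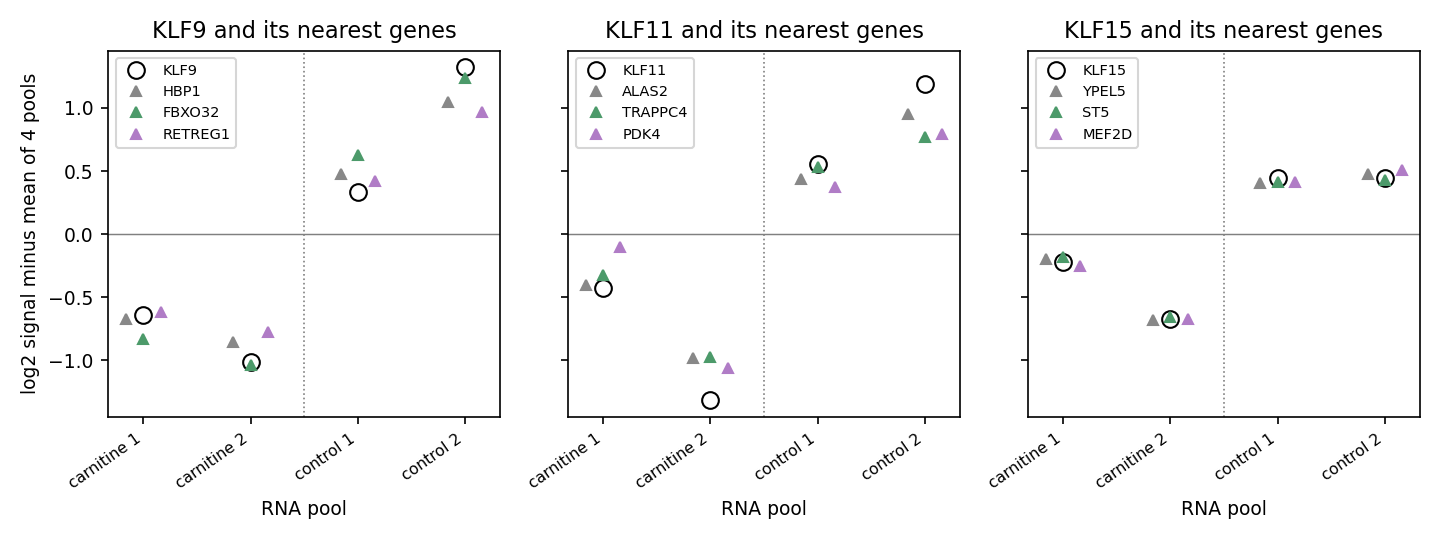
Log2 signal minus its mean over the 4 pools for the brightest probe sets of KLF9, KLF11 and KLF15 (open circles), by RNA pool. Triangles show the 3 genes with the most similar pattern to each, where genes already shown for a KLF to the left were passed over. The triangles of KLF15 coincide with its circles, at distances of 0.059 to 0.080, while those of KLF11 lie farther off, at 0.43 to 0.60.

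Genes around the KLFs were described by 7 lists, with the brightest probe set standing for a gene. No gene of these lists passed an adjusted p of 0.05 in limma, and neither did any of the 6765 genes taken this way. At an unadjusted p below that value 6.56% of those genes were higher and 3.99% lower with carnitine, and their median log2 fold change was -0.0089.

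The cofactors are the proteins through which KLFs act. Of 19, 10 were measured, 6 above and 4 below 0, with a median log2 fold change of 0.10. At an unadjusted p 1 was higher and 0 were lower. This was SAP30, a subunit of the SIN3 complex, with 279 and 303 with carnitine against 138 and 203 in controls (log2 fold change 0.80 with a standard error of 0.31, limma adjusted p = 0.544). HDAC1, the deacetylase of that complex, had 1034 and 1217 against 1012 and 594, and HDAC2 had 520.2 and 622 against 460.4 and 494. WWP1, a ubiquitin ligase of KLF proteins, had 849.9 and 892 against 1283 and 962. Of the closely related Sp factors only SP1 and SP7 were measured. The 4 probe sets annotated to SP1 were dim and disagreed in sign, with log2 fold changes of -1.35, 1.29, -0.79 and 0.73, so that SP1 had no settled direction. The former pair carries a gene identifier, 397314, other than that of the latter pair, 396575, so that not all of them may be SP1. SP7, an osteoblast factor, had 249 and 223 against 358 and 166, which overlapped.

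The clock genes set the daily rhythm of several KLFs. Of 22 listed genes 8 were measured, and 7 of them had a log2 fold change below 0, where 50.9% of all genes did. The median was -0.21. CRY2, a repressor of the clock, had 649 and 475 with carnitine against 979 and 769.8 in controls (log2 fold change -0.65 with a standard error of 0.25, limma adjusted p = 0.539), and it was the only one at an unadjusted p under 0.05. RORA, an activator of the clock gene ARNTL, had 162 and 196 against 329 and 250.4. DBP, an output factor of the clock, had 1164 and 847 against 2374 and 995, and PER1 had 1790.2 and 1721 against 1782 and 2369. Both carnitine pools lay below both control pools for 3 of the 8 genes, CRY2, RORA and the kinase CSNK1D, where 21.0% of all genes did so, and the diets overlapped for DBP and PER1. A dim second probe set of PER1 differed in sign, with a log2 fold change of 0.81.

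KLF9 and KLF15 are induced by glucocorticoids, and other genes with this response were set beside them. Of 19 listed genes 14 were measured and none was dim. The list had 4 genes above and 10 below 0, where 50.9% of all genes were below, and a median of -0.11. At an unadjusted p 2 were higher and 2 were lower. SESN1, a stress-induced regulator of mTOR, had 858 and 665 with carnitine against 1395 and 1578 in controls (log2 fold change -0.97 with a standard error of 0.22, limma adjusted p = 0.358). TAT, the hormone-induced enzyme of tyrosine breakdown, had 3272 and 3059 against 4527 and 4824 (log2 fold change -0.56 with a standard error of 0.18, adjusted p = 0.461). On the other side stood DUSP1, a phosphatase of MAP kinases, with 2077 and 2157 against 1438 and 1343 (log2 fold change 0.61 with a standard error of 0.18, adjusted p = 0.446), and FKBP5, a chaperone of the glucocorticoid receptor, with 1000.0 and 1184 against 619 and 813 (log2 fold change 0.62 with a standard error of 0.23, adjusted p = 0.524). KLF9 and KLF15, themselves such genes, were lower with carnitine (log2 fold changes of -1.65 and -0.90), but they were chosen on this contrast.

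Thyroid hormone is a further known inducer of KLF9, and TGF-beta is one of KLF10 and KLF11. Of 11 measured genes of the thyroid hormone response 0 were higher or lower at an unadjusted p, and 7 were dim, among them the receptor THRB and the deiodinases DIO1, DIO2 and DIO3. The receptor THRA had 958 and 1279 with carnitine against 1008 and 1086 in controls, and the corepressor HR had dim signals of 38.4 and 116 against 97.4 and 95.0. A pair of still dimmer probe sets of HR had log2 fold changes of -1.60 and -2.71, against -0.53 for the brightest one. In the TGF-beta list 10 of 19 genes were measured, 5 above and 5 below 0, and 1 was higher at an unadjusted p. This was ID1, an inhibitor of helix-loop-helix factors that answers to bone morphogenetic proteins, with 1722 and 2829 against 730.0 and 1039.8 (log2 fold change 1.34 with a standard error of 0.30, limma adjusted p = 0.356). The related ID3 had 1801 and 1485 against 1721 and 2014. The ligand TGFB3 and the signal mediator SMAD3 were dim and overlapped, with 106 and 47.3 against 62.1 and 197 for TGFB3 and 11.6 and 107.5 against 107.4 and 42.2 for SMAD3. A dimmer probe set of TGFB3 had the opposite sign, with a log2 fold change of 1.81 against -0.64.

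Of the genes of gluconeogenesis and amino acid breakdown, the processes in which KLF15 acts, 19 of 26 were measured. Of these, 10 lay above and 9 below 0, with a median log2 fold change of 0.011, and at an unadjusted p 2 were higher and 2 lower. ARG1, the last enzyme of the urea cycle, had 3913 and 7264 with carnitine against 1823 and 3816 in controls (log2 fold change 1.02 with a standard error of 0.41, limma adjusted p = 0.552). GPT, alanine aminotransferase, had 412 and 393 against 257 and 271 (log2 fold change 0.61 with a standard error of 0.24, adjusted p = 0.554). TAT, given above, was among the lower ones. The list thus had members on both sides of 0 beside the lower KLF15 signal.

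**Figure D4:**
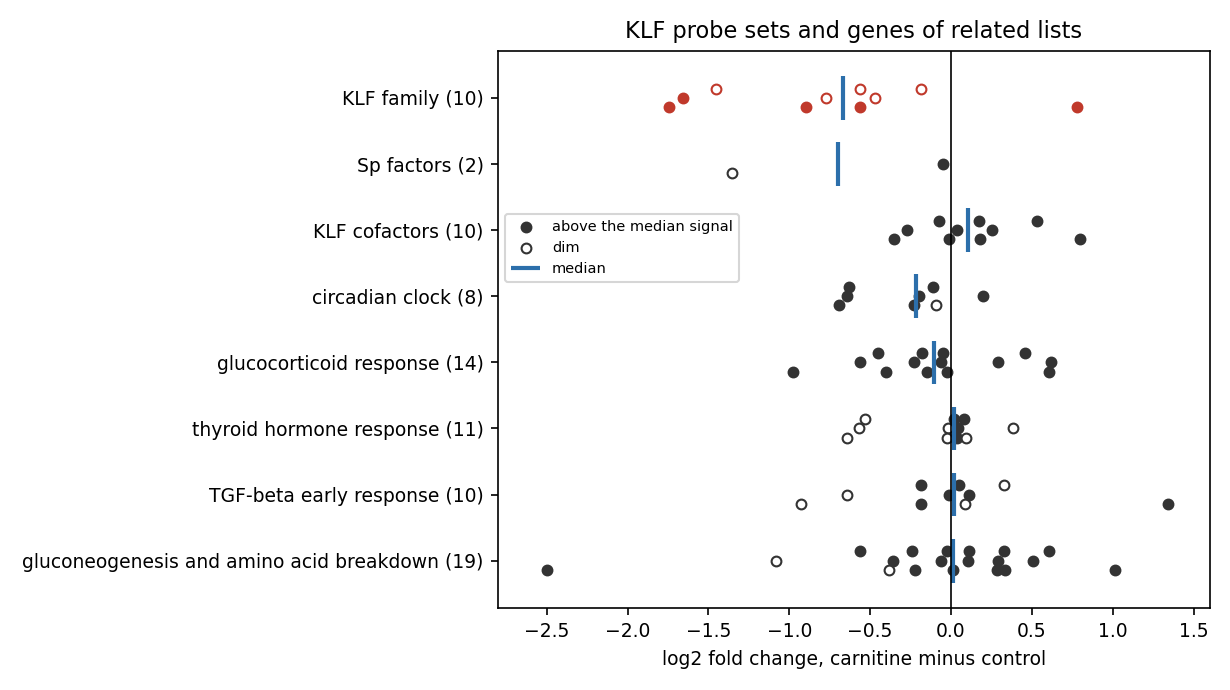
Log2 fold change (carnitine minus control) of the KLF probe sets (red) and of the genes of 7 lists (black), with filled points above the median signal, open points for dim ones, the number of points in brackets and a blue line at each median. Of the KLF points, which were chosen on this contrast, 9 lie left of 0 and 1 lies right of it, at 0.78, and of the clock genes 7 of 8 lie left of 0.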

How the data were processed

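Each diet had 2 liver RNA pools of 4 pigs, hybridized to Affymetrix porcine GeneChips. The authors deposited MAS5 signal intensities on a linear scale, scaled to a common trimmed mean per array. Software listed in the submitters' processing notes was MAS5 5.0, GCOS 1.1.2 and the Affymetrix Expression Console 1.1. Of 24123 probe sets, 124 controls were left out. Signals were put on the log2 scale without a pseudocount or filter, and the diets were compared by moderated linear models with a variance trend and 2 residual degrees of freedom (limma 3.58.1, run in R 4.3.3) over 23999 probe sets, with Benjamini-Hochberg adjustment at 0.05. The fit was tested on simulated data. Symbols came from the array annotation, which can be old: 10069 probe sets have 1 symbol, 198 several and 13732 none. It names no genome build, so no coordinates are given.

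The members, the 7 gene lists and the 7 cell type marker lists were chosen with earlier results of these data known. The text names every KLF probe set and, for each list, the 4 genes of lowest p at most. It also names the 3 genes nearest in pattern to the brightest probe set of KLF9, KLF11 and KLF15, taken in that order. KLF genes and genes already named for an earlier KLF were passed over. ALB, APOA1, KRT19, SOX9, KDR, CD3D, DIO1, DIO2, THRA and CSNK1D were added after their values were seen, and 1 lower gene of the list of gluconeogenesis and amino acid breakdown is not reported here. Neither detection calls nor values of single probes were used, and the number of arrays limits the precision. Alternatives were quantile normalization, median centring, a floor at the 25th percentile, an offset of 64, a filter on dim probe sets, arithmetic means, other variance models, the analysis of variance with diet as factor that the study's methods name, replicate blocks, the mean over probe sets and leaving out each pool.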

Additional observations from a re-analysis of the deposited data

How the results depend on the processing

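The direction of KLF9, KLF10, KLF11, KLF13 and KLF15 held under every alternative that was run, and that of the dim KLF1, KLF2 and KLF4 turned when a pool was left out. The number of KLF probe sets at 2-fold or more ranged from 3 to 5 when a pool was left out. It was 2 with an offset of 64, and 2 with the filter on dim probe sets. Among the single KLF values, an offset of 64 moved KLF11 to -1.12 and -0.83 and KLF13 to 0.68, and it brought the dim probe sets nearer to 0, with -0.33 for KLF9, -0.15 for KLF4, -0.037 for KLF2 and -0.057 for KLF1. Pools share replicate numbers between the diets, but with 2 pairs and a correlation of their deviations of 0.0049 over all probe sets nothing shows that the numbers pair the pools. With the replicate block 106 probe sets passed the adjusted p against 1 without it. This included 1 KLF probe set, the brighter of KLF9 (log2 fold change -1.65, adjusted p = 0.0191 from limma). It also included 1 gene of the TGF-beta list, ID1 (adjusted p = 0.0191 from limma), and 1 gene of the list of gluconeogenesis and amino acid breakdown. KLF9 was chosen on this contrast and the pairing is without support, so nothing is read from its p. The alternatives for the count of KLF probe sets past the adjusted p were added after seeing the data, and in those other than the replicate block it was 0. The other list counts were 0 under the alternatives that gave a p. When a pool was left out, 0 to 8 of all probe sets passed, and 1 pool then stood for its diet and was assumed to vary like the other diet. Arrays have no read depth, and how far a signal stood above background was not known in the absence of detection calls.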
